A study of Mus musculus with 2 samples.

Results

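Cytoplasmic ribosomal protein genes were described here in sorted brain myeloid cells of adult C57BL/6J mice. They were taken by symbol (Rpl and Rps genes followed by a number, with Rplp0, Rplp1, Rplp2 and Rpsa, leaving out -ps pseudogenes and the Rps6k kinases), which gave 84 of the 27998 genes in the files. Of these, 52 encode proteins or paralogs of the large (60S) subunit and 32 of the small (40S) subunit. Each group is 1 library of single cells. The CD library pooled 4 mice kept on control diet for 19 days. The Repop D5 library pooled 6 mice that were fed PLX5622 for 14 days and were then returned to control diet, with cells collected after 5 days of it. PLX5622 is a small-molecule inhibitor of Csf1r, the receptor that microglia need to survive, and the regrowth that follows its withdrawal is called repopulation. No transgene or Cre is named in the labels, and both groups went through the same papain digestion, density gradient and sort for CD11b+/CD45+ cells, a gate that microglia share with other myeloid cells.

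Every cytoplasmic ribosome is built from 1 copy of nearly every one of these proteins, together with ribosomal RNA, so their genes are usually described as expressed in concert. The small subunit reads the messenger RNA and the large subunit joins the amino acids. Many of their messenger RNAs begin with a terminal oligopyrimidine (TOP) sequence, a C at the cap followed by a run of C and T, through which the mTOR pathway is known to set how strongly they are translated. In microglia, as in other cells, demand for ribosomes is known to go with growth and division.

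The labels state 609 CD and 585 Repop D5 cells, and 609 and 553 were retained. They held 6055886 and 11037921 UMIs (unique molecular identifiers, the tags by which captured RNA molecules are counted), and medians of 5982 and 16226 UMIs per cell. The libraries share 1 cell barcode. All 11 microglia markers reached 10 CPM (counts scaled to 1000000 UMIs per library) in both libraries, and summed to 27702 CPM in CD and 11752 in Repop D5. Neutrophil markers summed to 13118.5 and 2098 CPM, haemoglobin genes of red cells to 1638 and 2.72 CPM, border macrophage markers to 433 and 37.3 CPM with Cd209f at 0 in Repop D5, and monocyte markers to 249 and 143 CPM. The defining T cell gene Cd3e was at 0 in both. Of the division markers, the S phase list summed to 330 and 1420 CPM and the G2 and M phase list to 114 and 2045 CPM. The immediate early list, genes such as Fos that dissociation is known to induce, summed to 6678 and 1508 CPM. No test between groups and no spread between mice can be had from 1 library per group, so each 95% interval covers counting error only, and "higher" or "lower" places the Repop D5 library against the CD library.

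Bases near the start of the transcript are shown first, because the TOP sequence lies at that start. The genes have high, middle and low ratios in the order described further on. Sequences are from RefSeq on GRCm38.p6 (mm10), 30 bases each. The capitals mark the longest run of C and T within the 50 bases on either side of the annotated start. Each stretch is placed around that run and not at the start, so it can lie outside the transcript. The runs of Rps28 and Rpsa begin 21 and 50 bases before the RefSeq start. For Rpsa the annotations differ, and by the GENCODE coordinates given further on its run lies inside the gene. The first 6 hold a C followed by at least 7 bases that are each C or T.
Rpl22l1, chr3:28805499-28805528, plus strand: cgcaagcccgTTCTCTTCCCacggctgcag
Rps26, chr10:128626485-128626514, minus strand: aagccgccggaTCCTCTTTCgagtcttggc
Rps6, chr4:86857349-86857378, minus strand: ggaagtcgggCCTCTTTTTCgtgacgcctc
Rplp2, chr7:141447636-141447665, plus strand: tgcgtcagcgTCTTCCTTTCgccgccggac
Rpl35, chr2:39005115-39005144, minus strand: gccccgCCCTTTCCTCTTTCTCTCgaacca
Rps27, chr3:90213632-90213661, minus strand: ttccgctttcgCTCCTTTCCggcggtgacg
The other 3 hold no such match in that window. For Rpsa the window edge cuts the run, and the C and T in small letters just before the capitals lie outside it.
Rpsa, chr9:120127704-120127733, plus strand: gcggaagttctcCCTTTTTgcttagcctgc
Rplp0, chr5:115559466-115559495, plus strand: aggaccgcctggTTCTCCTataaaaggcac
Rps28, chr17:33824567-33824596, minus strand: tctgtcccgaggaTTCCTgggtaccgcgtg

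RefSeq promoter entries were found for 63 of the 84 genes. On the transcribed strand, 52 of the 63 (82.5%) held the C-led pyrimidine run, against 31.7% of the other genes measured here and 32.0% of all genes in the table. The run was counted anywhere in the 50 bases on either side of the start. It need not lie at the cap or in the transcript, so these are not shares of genes with a TOP sequence. The letters CCGGAA, the core that ETS factors are known to bind, were found on either strand of the 300 bases around the start in 35 (55.6%), against 35.9% and 16.7%. The letters ATGGCG, the core of the YY1 motif, were found in 21 (33.3%), against 20.7% and 10.2%. Matches of these motifs can share an end base. These are matches of letters, not sites of binding, and the motifs were chosen with the expression values known. The measured genes with the pyrimidine run numbered 50 and had a median Repop D5 to CD ratio of 2.24 (0.92 to 4.93). The 10 without it had a median of 2.02 (0.99 to 4.06), so the ranges of both sets overlapped almost fully. Rpsa, at the upper end of the second set, is in it only because the window edge cuts its run.

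Ribosomal protein genes made up 11.3% of all UMIs in CD (exact 95% interval 11.28 to 11.33) and 23.0% in Repop D5 (22.96 to 23.01), a ratio of 2.03. The difference was seen across the cells of each library and not in a few of them. In CD the share of a cell's UMIs ran from 1.29% to 31.0% with a median of 10.8% and quartiles of 9.27% and 12.95%. In Repop D5 it ran from 7.46% to 40.6% with a median of 22.7% and quartiles of 20.8% and 24.8%. Of the 609 CD cells, 12 lay above the Repop D5 median, and of the 553 Repop D5 cells, 6 lay below the CD median. The outer parts of both distributions overlapped, with 41 CD cells at or above the Repop D5 5th percentile.

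**Figure D1:**
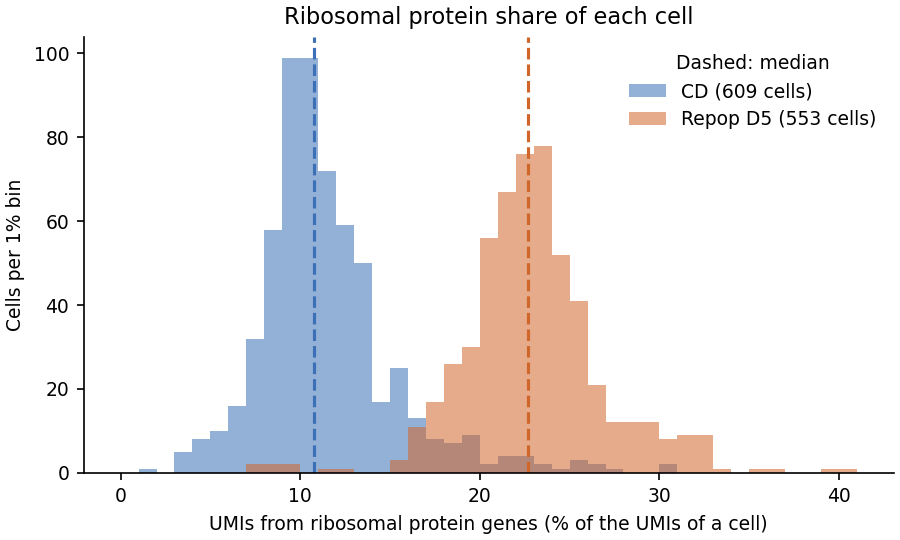
Histogram of the share of each cell's UMIs from ribosomal protein genes (x axis, percent) in bins of 1%, as cells per bin (y axis), for 609 CD and 553 Repop D5 cells, with dashed lines at the medians of 10.8% and 22.7%. The bulk of each library is separate from that of the other, and the upper tail of CD reaches into the Repop D5 range.

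A share of UMIs is relative, so the counts behind it are given too. The median cell held 750 ribosomal protein UMIs in CD and 3781 in Repop D5, 5.04 times as many. It held 5239 and 12573 other UMIs, 2.40 times as many. Both kinds of RNA were thus counted more per cell in Repop D5, and the ribosomal protein RNAs by the larger factor. Depth moves with the groups, and its part in the difference was not tested. With cells put in 3 groups of equal size by UMIs, the medians from the shallowest to the deepest group were 10.1%, 11.4% and 10.6% in CD and 22.5%, 22.7% and 22.7% in Repop D5. Over cells with 5000 to 15000 UMIs in both libraries, a range chosen after seeing the data, CD had a summed share of 12.1% and Repop D5 one of 23.2%. Mitochondrially encoded RNA made up 2.13% and 4.93% of UMIs, and without it the shares were 11.55% and 24.2%.

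The balance of the subunits was nearly the same in both libraries. Small-subunit genes gave 44.3% of ribosomal protein UMIs in CD (44.19 to 44.43) and 43.0% in Repop D5 (42.98 to 43.10). Per CD cell the median was 44.0%, with 5th and 95th percentiles of 40.2% and 47.6%, and 43.1% in Repop D5, with 41.3% and 44.6%. The difference between the libraries was smaller than the spread between the cells of either.

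Gene by gene, levels were compared as Repop D5 CPM divided by CD CPM. A gene was called where this ratio was at least 1.5 (higher), or the inverse ratio was (lower), and its interval did not reach 1, among genes with a mean of at least 10 CPM over both libraries. No value here is divided by transcript length, since a UMI counts molecules. Of the 84 genes, 81 were measured, with 75 called higher, 0 lower and 6 neither. Among all 7790 genes measured, 16.4% were called higher and 40.0% were called lower. For the ribosomal protein genes the median log2 ratio was 1.09 (quartiles 0.87 and 1.32) and over all genes it was -0.35, both on the scale of log2(CPM + 1). At a ratio of 2, 49 were higher and 0 lower, against 8.88% and 21.7% of all genes. The ratio was above 1 for 79 of 81, against 34.5% of all genes. Another scaling moves the split of all genes. Under the trimmed-mean scaling 29.5% were higher and 20.2% lower, and 78 of the 81 ribosomal protein genes were higher. Large-subunit genes were higher in 47 of 49 cases (median log2 ratio 1.04) and small-subunit genes in 28 of 32 (1.18).

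**Figure D2:**
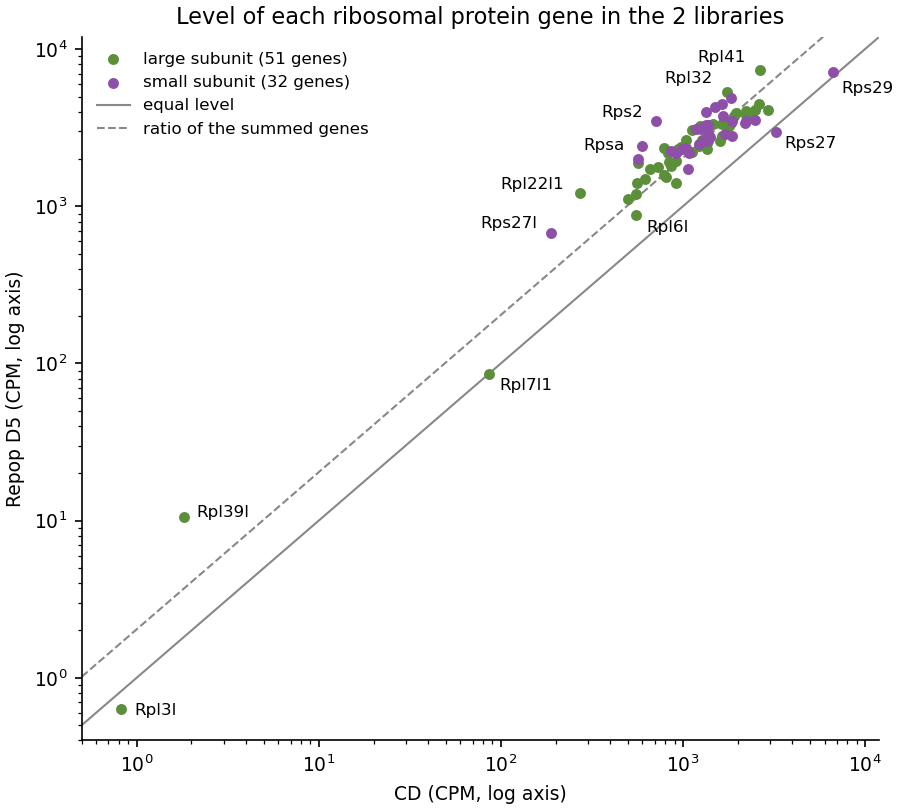
Level of each ribosomal protein gene in CD (x axis) and Repop D5 (y axis), in CPM on log axes, coloured by subunit, with the line of equal level (solid) and the ratio of the summed genes, 2.03 (dashed). Most genes lie near the dashed line, Rps29, Rps27 and Rpl7l1 lie at the line of equal level, and Rpl10l, at 0 in both libraries, is not drawn.

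The order of the genes by level was largely kept, with a Spearman correlation of 0.871 between their CPM in both libraries. This is a description over 81 genes that share 2 libraries and 1 gene annotation. Across the genes, the SD of log2 CPM was 0.90 for CD and 0.82 for Repop D5. The ratio had a weak relation to transcript length, with a Spearman correlation of 0.156 over the same 81 genes.

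Of the 6 highest ratios, 3 belonged to small-subunit proteins along the path of the messenger RNA (Rps2, Rpsa and Rps26), 2 to paralogs (Rpl22l1 and Rps27l) and 1 to Rpl12. Rps2 (ENSMUSG00000044533, chr17:24718116-24721929), which lines the channel where mRNA enters the 40S subunit, had 709 CPM in CD and 3498 in Repop D5, which gives a ratio of 4.93 (4.78 to 5.09, 95%). Rpsa (ENSMUSG00000032518, chr9:120127689-120132369), known also as the laminin receptor precursor and placed near the mRNA exit, had 598 and 2428 CPM, a ratio of 4.06 (3.92 to 4.21). Rps26 (chr10:128624534-128626747), which contacts mRNA upstream of the start codon, had 567 and 1988 CPM, a ratio of 3.50 (3.38 to 3.63). Each of these was in the lower part of the members' order by CD UMIs, and Rps2 went from the 69th to the 20th place. Rpl12 (chr2:32961559-32965345), at the base of the stalk that binds elongation factors, had 566 and 1892 CPM, a ratio of 3.34 (3.23 to 3.47).

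Of the 6 lowest ratios, 4 also belonged to small-subunit genes. Rps27 (ENSMUSG00000090733, chr3:90212522-90213651), a zinc-binding 40S protein, had 3258 CPM in CD and 2982 in Repop D5, a ratio of 0.92 (0.90 to 0.93). This order turned with the scaling, to 1.26 with a trimmed-mean scaling and 1.10 with totals that leave out mitochondrial and ribosomal protein genes. Rps29 (ENSMUSG00000034892, chr12:69157722-69159186), another zinc-binding protein of the 40S head and the gene with the most UMIs of the group in CD, had 6666 and 7192 CPM, a ratio of 1.08 (1.07 to 1.09). Rps28, a neighbour of Rps26 at the mRNA exit, had 2501 and 3533 CPM, a ratio of 1.41 (1.39 to 1.44). Rps9, which with Rps2 and Rps3 forms the mRNA entry, had 1861 and 2791 CPM and lay just under the limit of 1.5, with an interval of 1.47 to 1.53. Rpl30, the next gene in the order, lay just above it at 1.53 (1.49 to 1.58). The 2 others among the 6 lowest, Rpl7l1 and Rplp1, are described with their families.

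**Figure D3:**
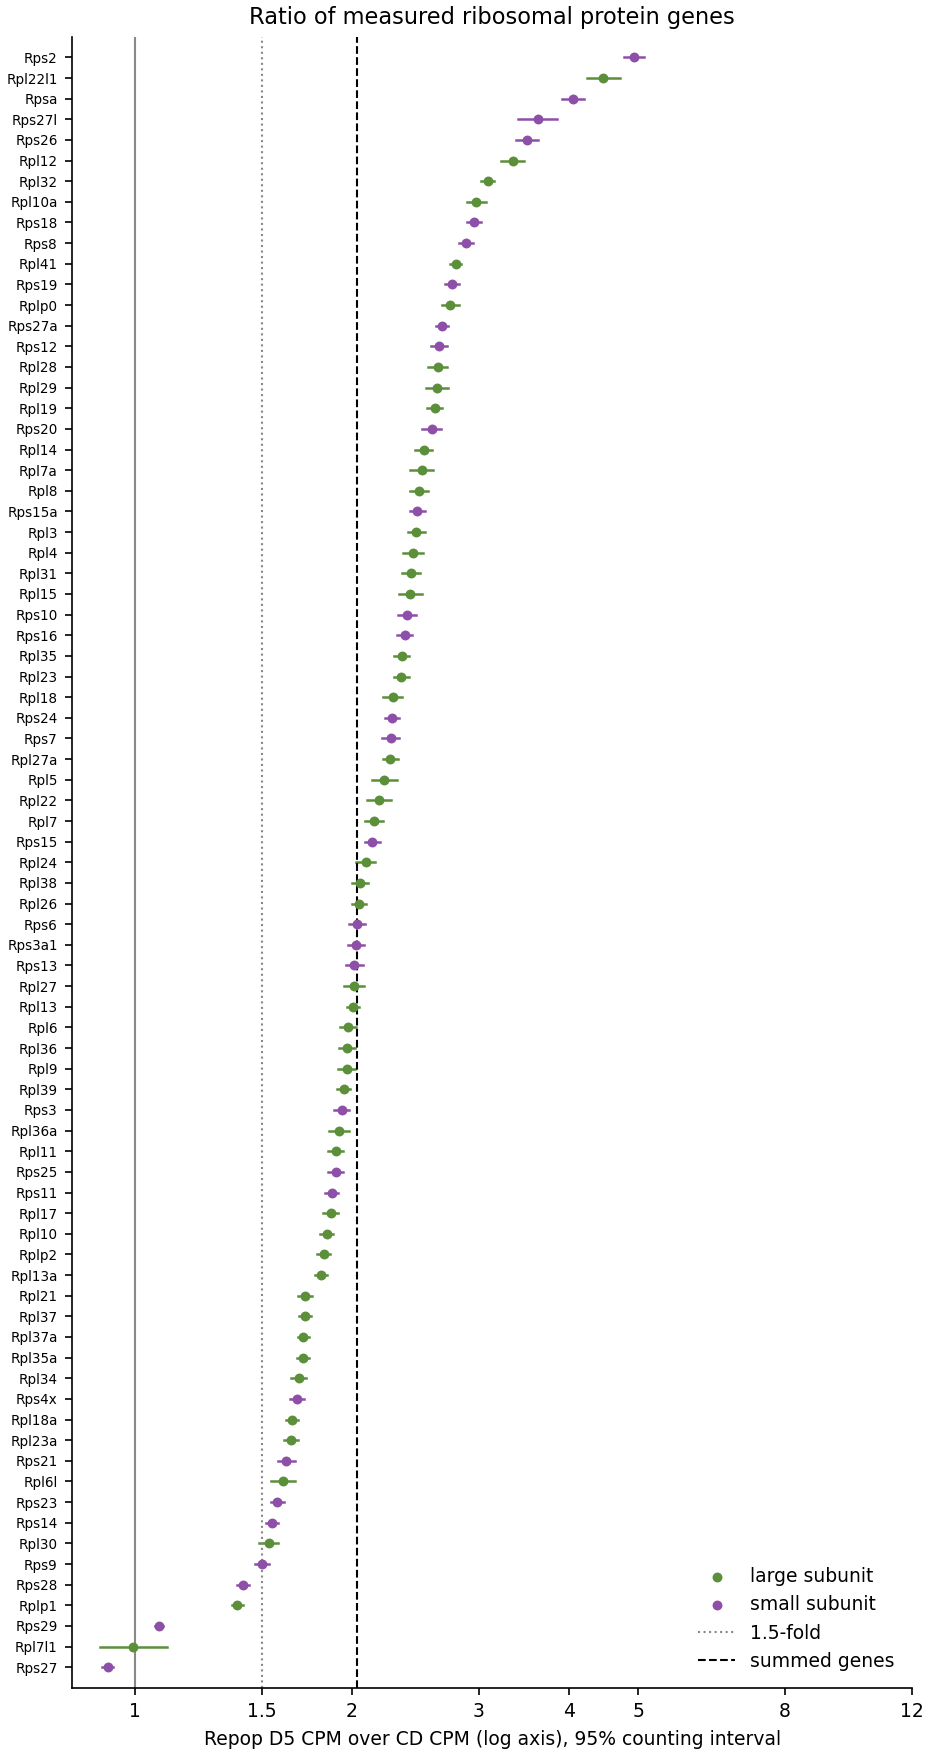
Ratio of Repop D5 CPM to CD CPM (x axis, log scale) for 79 of the 81 measured ribosomal protein genes in order, with 95% counting intervals as bars, coloured by subunit, with lines at 1, at 1.5 and at the ratio of the summed genes (dashed). The ratios run from 0.92 for Rps27 to 4.93 for Rps2, and 6 genes lie below 1.5, of which Rps27, Rpl7l1 and Rps29 stand apart near 1.

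Between these ends, the 6 genes nearest the median ratio of 2.13 came from both subunits. Rps15, a 40S head protein, had 1373 and 2929 CPM, and Rpl7, a large-subunit protein, 911 and 1957 CPM. Rpl24, which forms a bridge between the subunits, had 866 and 1810 CPM, and Rpl38, known for its part in the translation of Hox mRNAs, 1281 and 2629 CPM. Rpl22 and Rpl5 had 553 and 1206 CPM, and 499 and 1108 CPM. Rps6, the substrate of the S6 kinases downstream of mTOR, had 1225 and 2488 CPM, a ratio of 2.03 (1.98 to 2.08), the same as that of the summed genes.

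The proteins of the stalk differed among themselves. Rplp0, which anchors the stalk, had 1119 CPM in CD and 3068 in Repop D5, a ratio of 2.74 (2.67 to 2.81). Rplp2, 1 of the acidic proteins that the anchor carries, had 1786 and 3264 CPM, a ratio of 1.83 (1.79 to 1.87). Rplp1, its partner, had 2953 and 4094 CPM, a ratio of 1.39 (1.36 to 1.41). It was called neither. The intervals of the 3 ratios did not overlap. Rpl5 and Rpl11, which bind 5S RNA and can hold the p53 regulator Mdm2, were both higher, at ratios of 2.22 and 1.90. Of 9 proteins that line or surround the exit tunnel of the growing chain, 9 were called higher, at a median of 1.12 on the log2 scale. On a list of genes known from Diamond-Blackfan anaemia, a red cell disorder of ribosomal protein genes, 9 of 9 were called higher, at a median of 1.18. These counts stand beside 75 of 81 (median 1.09) for all measured ribosomal protein genes and 16.4% of all genes, and the role lists were drawn up after the values were seen, so nothing particular to these roles is read from them.

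The most abundant genes did not share 1 ratio. By mean CPM the first 6 were Rps29, Rpl41, Rpl37a, Rpl32, Rplp1 and Rps27a. Rpl41, a very small protein at the subunit interface, had 2647 CPM in CD and 7378 in Repop D5, a ratio of 2.79 (2.74 to 2.84), and it took the first place by UMIs in Repop D5. Rpl32, a large-subunit protein, had 1738 and 5371 CPM, a ratio of 3.09 (3.03 to 3.15). Rps27a, made as a fusion with ubiquitin, had 1828 and 4877 CPM, a ratio of 2.67. Rpl37a, a zinc-binding large-subunit protein, had 2630 and 4506 CPM, a ratio of 1.71.

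The make-up of the ribosomal protein RNA pool shifted accordingly. As a share of ribosomal protein UMIs, 41 genes were larger in Repop D5 and 32 smaller with an interval clear of 1, most by little. By 1.5-fold, 7 were larger (Rps2, Rpl22l1, Rpsa, Rps27l, Rps26, Rpl12 and Rpl32) and 3 smaller (Rps27, Rpl7l1 and Rps29). Rps29 was 5.90% of the pool in CD and 3.13% in Repop D5. Per cell its quartiles were 4.75% and 6.36% in CD and 2.87% and 3.46% in Repop D5, so the middle part of the cells of each library did not overlap. Rps2 was 0.628% and 1.52% of the pool, with quartiles of 0.433% and 0.837% per CD cell and 1.27% and 1.70% per Repop D5 cell. The quartiles of Rps27 were 2.31% and 3.30% in CD and 1.11% and 1.46% in Repop D5, again without overlap. The wider spread in CD stands beside its fewer UMIs per cell.

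Spread between cells was also taken at equal depth, as the variance of the UMI count over its mean after each cell was thinned to 3000 UMIs (599 CD and 553 Repop D5 cells, with 10 CD cells too shallow). Random counting alone gives 1. The median over the 81 genes was 1.52 in CD (1.02 to 3.59) and 1.34 in Repop D5 (1.04 to 2.27), and 42 and 19 genes were above 1.5. Rps29 had the highest value in each library, and it is also among the genes with the most UMIs, a property this measure can move with. Over cells outside the border macrophage, monocyte and neutrophil marker cuts described further on, the medians were 1.46 and 1.29, and Rps29 had 3.19 and 2.12.

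Paralogs went apart from their parent genes in several families. Rpl22l1 (ENSMUSG00000039221, chr3:28805436-28807424), the paralog that can take the place of Rpl22 in the large subunit, had 271 CPM in CD and 1212 in Repop D5, a ratio of 4.47 (4.25 to 4.71). Rpl22 itself had a ratio of 2.18 (2.1 to 2.27). In CD the paralog was thus below its parent by UMIs, and in Repop D5 both stood at nearly the same level, with 1212 and 1206 CPM. Rps27l (chr9:66946086-66949516), a paralog of Rps27 known as a p53 target, had 188 and 681 CPM, a ratio of 3.62 (3.40 to 3.86), against 0.92 for Rps27. Rpl7l1, a nucleolar relative of Rpl7 known from large-subunit assembly, had 86.5 and 86.0 CPM, a ratio of 0.99 (0.89 to 1.11), against 2.15 for Rpl7.

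Rpl6l, annotated as a processed pseudogene and a near copy of Rpl6, had 550 and 882 CPM, a ratio of 1.60 (1.54 to 1.67), against 1349 and 2665 CPM for Rpl6. The paralogs of muscle and testis had a mean under 10 CPM and were not among the 81 measured genes. Rpl39l, the testis-enriched paralog of Rpl39, had 11 UMIs in CD and 117 in Repop D5, or 1.82 and 10.6 CPM, a ratio of 5.84 with a wide interval of 3.14 to 12.01. Rpl39 had 1920 and 3741 CPM. Rpl3l, the paralog of heart and skeletal muscle, had 5 and 7 UMIs, a ratio of 0.768 whose interval of 0.210 to 3.07 spans 1, while Rpl3 had 976 and 2399 CPM. Rpl10l, the testis paralog of Rpl10, had 0 UMIs in both, which with a floor of 3 counts allows up to 0.495 CPM in CD and 0.272 in Repop D5.

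Ribosomal protein genes have many near-identical copies in the genome, and reads from such stretches cannot be assigned with certainty. Of the 84 genes, 75 share at least 1 window of 100 bases with a transcript of another gene in GENCODE M21, and 31 share over 50% of their windows. The windows cover the whole transcript, and the other genes need not be in the gene files. Rpl10a, for example, shares 87.1% of its windows with 2 genes, 0 of them in the gene files. These counts thus do not measure how many UMIs were affected. Rps27 is the most affected, with 98.4% of its windows shared with Rps27rt. Rps27rt, which the naming rule did not take in, had 1283 CPM in CD and 606 in Repop D5, a ratio of 0.47 (0.46 to 0.49), so the values of this pair are uncertain. Rpl6l shares 61.9% of its windows and Rpl6 54.2%, in part with each other, so the values of this pair are uncertain too. Rps2 shares 58.5% of its windows with 36 other genes, 4 of them in the gene files. Rpl22l1 shares 40.6% with 1 gene that is not in the gene files, Rpsa 31.1% and Rps29 24.7%. Rpl22, Rpl32, Rps3, Rps21 and Rps27l are among those that share none, and their ratios were 2.18, 3.09, 1.94, 1.62 and 3.62.

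The share of ribosomal protein RNA also differed among cells of 1 library. Cells were sorted into ranges by their markers: at least 0.2% of UMIs from the border macrophage list, 0.3% from the monocyte list, 1% from the neutrophil list, and the rest. A range cut from a score is not a cell type. In CD, the rest (536 cells) had a median share of 10.9%, the border macrophage range (17 cells) 10.8%, the neutrophil range (51 cells) 9.07% and the monocyte range (5 cells) 21.03%. In Repop D5, the rest (532 cells) had 22.7%, the border macrophage range (4 cells) 19.2%, the neutrophil range (11 cells) 9.55% and the monocyte range (6 cells) 24.1%. The 5 CD cells of the monocyte range ran from 8.75% to 24.5%, and the 11 Repop D5 cells of the neutrophil range from 7.46% to 30.9%, so these ranges reach across the levels of both libraries.

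These ranges are small, and some depend on the cut. With cuts at 50% of these values, the Repop D5 neutrophil range grew to 14 cells and its median moved to 19.0%. The CD monocyte range kept a median between 21.03% and 21.53% under every cut tried. Cells in the CD neutrophil range still held a median of 2.05% of UMIs from microglia markers, against 2.93% in the rest, so they are not free of microglial RNA. With doubled cuts that range had 42 cells, a median ribosomal protein share of 6.72% and a median of 0.824% from microglia markers. Cells between 50% of the cut and the cut numbered 42 in CD for the border macrophage list and 13 for the neutrophil list. Restricted to the rest, CD had a summed share of 11.5% and Repop D5 one of 23.0%.

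**Figure D4:**
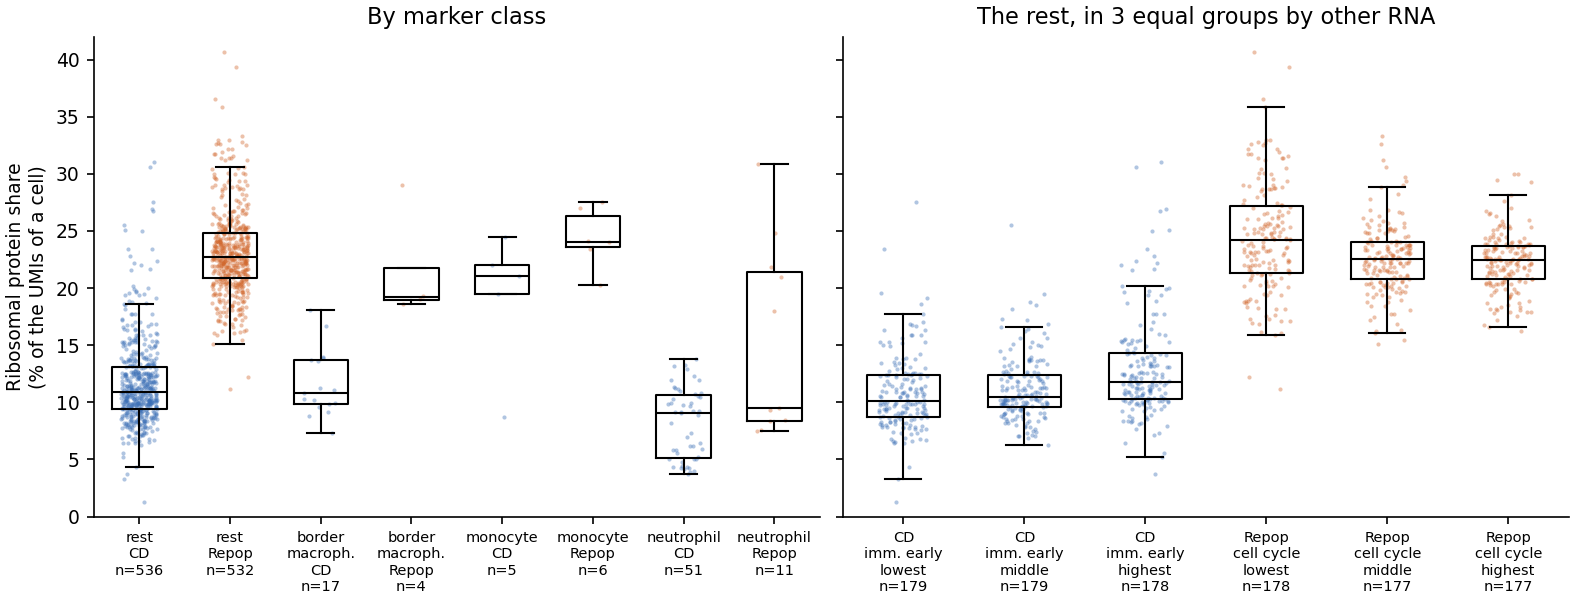
Share of a cell's UMIs from ribosomal protein genes (y axis, percent) by marker range in each library (left) and in 3 equal groups of the rest, ordered in CD by immediate early RNA and in Repop D5 by cell cycle RNA (right); points are cells, boxes show median and quartiles, and whiskers reach the last cell within 1.5 times the box. The rest had medians of 10.9% and 22.7%, the 5 CD cells of the monocyte range had 21.03%, and the 3 Repop D5 groups had 24.2%, 22.5% and 22.4%.

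Within Repop D5, more cell cycle RNA did not go with a larger share. The rest of Repop D5 was divided into 3 groups of equal size by the share of S phase plus G2 and M phase genes. The low group (178 cells, median 12791.5 UMIs) had a median ribosomal protein share of 24.2%, the middle group (177 cells, 17755 UMIs) 22.5%, and the high group (177 cells, 22018 UMIs) 22.4%. The summed shares were 24.5%, 22.6% and 22.5%. From the low to the high group, the ratio was above 1 for 5 of 81 genes, against 59.3% of all genes, with a median of 0.918. Rps27 was the lowest, at 3419 CPM in the low group and 2738 CPM in the high group, a ratio of 0.801, followed by Rps26 at 0.836 and Rps29 at 0.848. Among the genes above 1 were the paralogs Rpl7l1 (1.30), Rps27l (1.22) and Rpl22l1 (1.05), and Rpl5 (1.01). Depth differs between these groups, and its part was not tested. All 3 medians lay above the CD median.

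Within CD, the rest was divided in the same way by immediate early RNA. The median ribosomal protein share was 10.1% in the low group (179 cells), 10.4% in the middle group (179 cells) and 11.8% in the high group (178 cells). Their median depths were 4410, 7264 and 6237 UMIs, and the part of depth was not tested. The ratio of the high to the low group was above 1 for 75 of 81 genes, against 49.3% of all genes, with a median of 1.11 (0.974 to 1.32). It was 1.32 for Rpl36 and 1.30 for Rps28, and 0.994 for Rps2. The immediate early list was lower in Repop D5 than in CD as a whole, while the ribosomal protein share was larger there, so inside CD the 2 measures went together and between the libraries they went apart.

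The rest of the translation machinery was read from 9 lists by the same calls, with 16.4% higher and 40.0% lower among all genes as the background for each. Elongation factors, which bring in tRNAs and move the ribosome, were nearest to the ribosomal proteins. Of 7 measured, 6 were higher and 0 lower (median log2 ratio 1.15). Eef1a1, which delivers tRNAs, had 2094 CPM in CD and 4653 in Repop D5, and Eef1g, a subunit of its exchange factor, 254 and 932 CPM, the highest ratio of the list at 3.67. Tpt1, which has a well-known TOP mRNA, had 1435 and 2280 CPM, and Eef1d had 261 and 372 CPM. Tpt1 was put on this list but is not itself an elongation factor, and it is 1 of the 6 called higher. Of 3 ribosomal proteins with other symbols, 2 were higher. Gnb2l1, which encodes the 40S scaffold Rack1, had 388 and 1266 CPM, a ratio of 3.27. Fau, made as a fusion with a ubiquitin-like protein, had 2765 and 3679 CPM, a ratio of 1.33.

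Initiation factors were higher in part. Of 28 measured, 16 were higher and 1 lower (median log2 ratio 0.69). Eif1, which scans for the start codon and is the most abundant, had 1128 CPM in CD and 1112 in Repop D5, and Eif4a1, the helicase, 439 and 801 CPM. Eif4a2, the second form of that helicase, was the member called lower, at 299 and 145 CPM, so the 2 forms went opposite ways. Eif1ax had the highest ratio, at 36.2 and 99.7 CPM. Of 11 measured factors that receive the new chain, 4 were higher and 0 lower (median 0.48). Naca and Btf3, the subunits of the nascent chain complex, had 466 and 910 CPM, and 350 and 757 CPM. Sec61b, of the channel into the endoplasmic reticulum, had 204 and 481 CPM, while Sec61a1, its pore subunit, had 91.5 and 74.4 CPM.

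Ribosome biogenesis genes, which make and process ribosomal RNA, were higher in part. Of 37 measured, 15 were higher and 1 lower (median log2 ratio 0.38), which leaves 21 neither. Npm1, a nucleolar chaperone, had 258 CPM in CD and 809 in Repop D5, a ratio of 3.13, and Ncl, nucleolin, 143 and 355 CPM. Ubtf, a factor of RNA polymerase I at ribosomal DNA, was the member called lower, at 59.3 and 39.0 CPM. Among 75 measured mitochondrial ribosomal proteins, 27 were higher and 0 lower (median 0.44), with Mrpl52 at 270 and 329 CPM and Mrpl54 highest, at 44.1 and 120 CPM.

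Of 12 measured regulators of growth and of TOP mRNAs, 2 were higher and 6 lower (median log2 ratio -0.53), shares near those of all genes. Under the trimmed-mean scaling this median lay closer to 0. Myc, a transcription factor of growth genes, had 16.7 CPM in CD and 31.1 in Repop D5, and Mxd1, which opposes it, 32.2 and 7.25 CPM. Rheb, which activates mTOR, had 136 and 133.5 CPM, and Eif4ebp1, an inhibitor of the cap-binding protein Eif4e that mTOR switches off, 64.2 and 100.2 CPM. Other genes of this pathway were among the 6 called lower. These were Rptor (78.8 and 28.3 CPM), the S6 kinase gene Rps6kb1 (65.6 and 41.4 CPM) and Mtor (14.4 and 9.51 CPM). Of 7 measured p53 targets, 4 were higher and 1 lower (median 0.89). Cdkn1a, the cell cycle inhibitor p21, had 35.3 and 147 CPM and Bax, a cell death gene, 130 and 248 CPM, whereas Btg2, which is also an immediate early gene, had 457 and 98.5 CPM. RNA levels do not show the activity of these regulators.

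**Figure D5:**
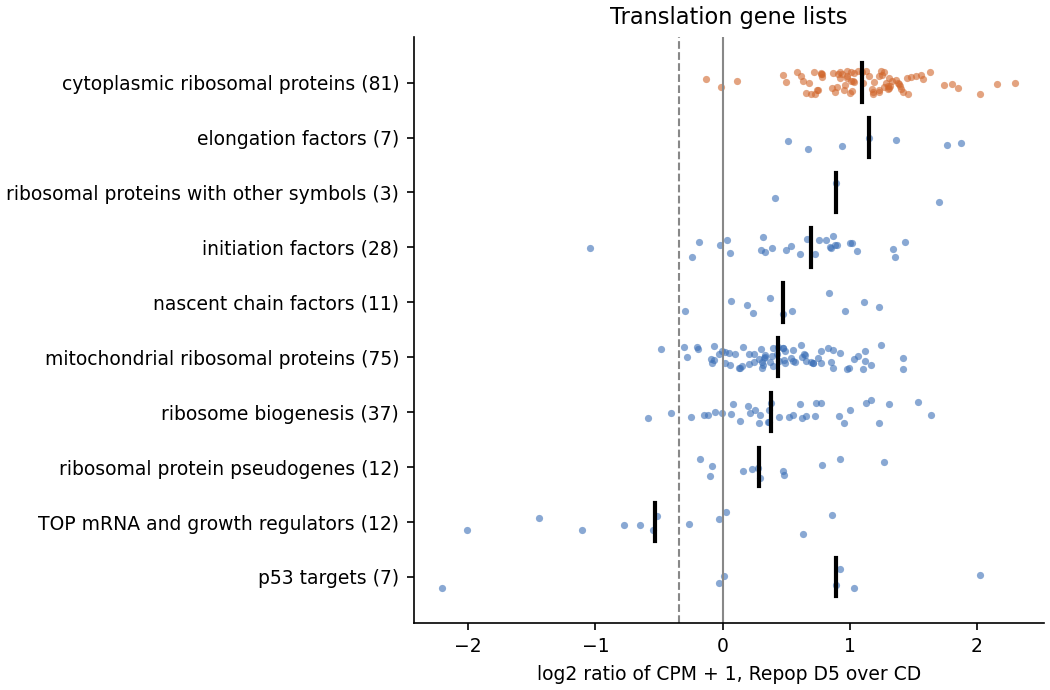
Log2 ratio of CPM + 1, Repop D5 over CD (x axis), for each measured gene of the ribosomal protein group and of 9 further lists (rows, with the number measured), with a bar at the median of each and a dashed line at the median of all genes, -0.35. The ribosomal proteins (median 1.09) and elongation factors (1.15) lie furthest right, and the growth regulators (-0.53) lie left of the other lists.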

How the data were processed

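Brain cells were sorted and their RNA was counted in 2 10x Genomics libraries of pooled mice. Per the submitters' processing notes, reads were handled with Cell Ranger 2.1.0 on mm10; which annotation was used and how cells were called is not given in the sources used here. Per library, the deposited files hold UMI counts, as whole numbers, for every gene and barcode. The authors' pooled matrix holds the same CD counts and 96.8% of the Repop D5 UMIs, and served as an alternative.

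Cells with at least 500 genes and under 10% mitochondrial UMIs were retained (32 Repop D5 barcodes were left out), with no doublet removal. UMIs were summed per library and scaled to CPM. Ratios have exact conditional binomial 95% intervals and shares exact Clopper-Pearson intervals. Genes needed a mean of 10 CPM, and 1 CPM was added before logs. Named genes are the 6 highest, 6 lowest, 6 most abundant and 6 nearest the median, with paralogs and their parents, stalk genes, Rpsa and Rps6, and, in each list, the 2 most abundant, the highest and the lowest; others were named after their values were seen. The genes, lists and alternatives were chosen with earlier results of these data known. Coordinates are from GENCODE M21, and promoter sequences from RefSeq GRCm38.p6. The calls were tested on simulated counts. Python 3.11.15, numpy 2.4.6, scipy 1.17.1 and pandas 2.3.3 were used. Values of a few genes are not reported here.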

Additional observations from a re-analysis of the deposited data

How the results depend on the processing

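No paired analysis was possible because each group is 1 library. The ribosomal protein share of UMIs (11.3% in CD, 23.0% in Repop D5) was 22.9% in Repop D5 with no cell filter and 23.1% in the pooled matrix. In CD and Repop D5 it was 11.3% and 23.3% with at least 1000 genes and under 5% mitochondrial UMIs, 11.5% and 23.0% outside the marker cuts, 11.4% and 23.0% without the 5% of cells with the most UMIs, 11.4% and 23.0% with equal weight per cell, 11.47% and 22.9% thinned to 3000 UMIs, 11.55% and 24.2% without mitochondrial genes, and 12.1% and 23.2% over cells with 5000 to 15000 UMIs. The small-subunit share in CD (44.3%) was 44.0%, 44.1% and 44.1% with equal weight, thinning and that depth range. The median log2 ratio (1.09) was 1.02 with equal weight, 1.04 with thinning, 1.55 with the trimmed-mean scaling, 1.36 with totals without mitochondrial and ribosomal protein genes, and 0.96 in that depth range. Both scalings raise every log2 ratio, by 0.46 and 0.26, and turned Rps27 to 1.26 and 1.10. Genes called higher numbered 49 at a ratio of 2 and 71 to 78 under the other alternatives, with 0 lower in each. The split of all genes was 16.4% higher and 40.0% lower, and 23.1% and 27.8% with the second scaling. Over the 9 translation lists, 79 genes were higher and 9 lower; with the trimmed-mean scaling 143 and 5, and with the second scaling 5 were lower. With doubled cuts the CD border macrophage range had a median of 14.0%, on 2 cells, and the CD neutrophil range one of 6.72%. With cuts at 25% the CD neutrophil range had 10.2%, and the cause of these moves was not tested. The depth range and the cuts at 25% were chosen after seeing the data. No ratio of a ribosomal protein gene moved by more than 1.17-fold with the choice of cells or matrix. With 1 library per group, nothing here measures the spread between mice, and the part of sorting, dissociation and capture in the difference between the libraries cannot be told apart from the treatment.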

Other observations

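Pseudogenes of ribosomal proteins with -ps symbols were listed in the gene files 16 times, and 12 were measured, with 3 higher and 0 lower (median log2 ratio 0.28). Rps12-ps3 had 754 CPM in CD and 1434 in Repop D5, and Rpl10-ps3 834 and 1010 CPM. Rps2-ps6 had the highest ratio, at 15.4 and 38.3 CPM, and Rpl23a-ps3 the lowest, at 749 and 664 CPM. These counts are uncertain, since the parent genes share their sequence.

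Genes with similar symbols that the naming rule left out did not all go the same way. Rpl36al, an expressed relative of Rpl36a, had 426 and 884 CPM, a ratio of 2.07 (1.99 to 2.17), near the 1.92 of Rpl36a. Rps19bp1, which encodes a protein that binds Rps19 and is no ribosomal protein, had 51.2 and 48.8 CPM, while Rps19 had 1632 and 4493 CPM.

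The 32 Repop D5 barcodes left out for mitochondrial RNA or few genes had a median ribosomal protein share of 17.6% (9.27 to 29.6), with a median of 6689 UMIs and 14.1% mitochondrial UMIs. Their middle range of 15.05% to 20.4% lay below that of the retained Repop D5 cells and above that of the CD cells.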
